A study of Mus musculus with 35 samples.

Results

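The genes described here encode proteins of the nucleolus that transcribe, cut, modify and fold ribosomal RNA. They were taken from the gene names of the RNA-seq table, by name only: the Nop, Nol, Utp and Rrp genes with a number, the RNA polymerase I subunits, Gnl2, Gnl3 and Gnl3l, and further single names such as Ncl, Npm1, Fbl, Dkc1, Pes1 and those beginning with Nhp2. The rule found 56 of the 11982 gene names in the table. The measurements came from hematopoietic stem/progenitor cells (HSPCs) of mouse bone marrow, with 2 wild-type (WT) libraries and 2 libraries from JMJD1B-/- mice. Both genotypes were on the 129P2xC57BL/6J strain. The labels name no drug and no time course. JMJD1B, the product of Kdm3b, is a demethylase of histone marks on H3K9 and H4R3, and the JMJD1B-/- mice carry a gene trap in it. The study used adult mice of both sexes, with an age range stated for all its mice together. Which age and sex, how many animals and which sort of cells stood behind each of these 4 libraries was not given in the sources used here. The comparison asks how loss of JMJD1B is accompanied by altered expression of these genes in HSPCs.

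Ribosome production starts when RNA polymerase I transcribes the ribosomal DNA into a long precursor RNA. Box C/D particles methylate the ribose of that RNA and box H/ACA particles convert uridines to pseudouridine, each guided by a small nucleolar RNA. The small subunit processome folds and cleaves the part that becomes the 40S subunit, while a separate set of factors builds the 60S subunit and accompanies it out of the nucleolus. Cells that grow and divide fast, such as hematopoietic progenitors, depend on a high rate of this process, and the transcription factor Myc is known to drive many of its genes through a DNA motif called the E-box.

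The values are RPKM, read numbers divided by the length of the gene and by the size of the library. The steps between the lowest values gave estimated depths, in units of 1000000 reads, of 17.5 and 24.6 for the WT libraries and 6.11 and 21.0 for the JMJD1B-/- libraries, so replicate 1 of JMJD1B-/- was the shallowest. On a gene of 1 kilobase, 3 reads corresponded to between 0.122 RPKM in the deepest library and 0.491 RPKM in the shallowest. Every nucleolar gene was far above this floor, with an estimated 29.0 reads per kilobase or more in every library. Kdm3b, the targeted gene, was at 31.0 and 24.3 RPKM in WT and at 4.00 and 4.63 RPKM in JMJD1B-/-, and thus followed the labels. All 14 stem and progenitor markers were listed above 0 in all 4 libraries, and their levels summed to 507 and 465 RPKM in WT and to 317 and 443 RPKM in JMJD1B-/-. Their median log2 fold change was -0.63, with 2 of 14 above 0. For 7 of 14 the higher JMJD1B-/- value was under the lower WT value, against 22.7% of all genes tested. Nothing in the labels says that the libraries came from separate animals beyond being biological replicates, so the p-values measure the spread between these libraries.

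The cell type markers moved with genotype. For comparison, 3.81% of all genes tested were called higher and 6.33% lower with all 4 libraries. These shares of all genes also moved with the library left out. Of 12 erythroid markers, 11 were higher in JMJD1B-/- at an unadjusted p under 0.05, and between 9 and 12 with any 1 library left out, and their summed level was 621 and 843 RPKM in WT against 1571 and 2751 RPKM in JMJD1B-/-. Of 10 granulocyte markers tested, 6 were lower and 2 higher (4 to 6 lower and 1 to 3 higher with 1 library left out), and the sum of the 12 listed went from 304 and 207 RPKM to 98.4 and 59.1 RPKM, with Camp listed at 0 in 2 of the libraries. Lower calls were also made for 8 of 10 basophil, eosinophil and mast cell markers, 5 of 8 megakaryocyte markers, 5 of 14 stem and progenitor markers and 3 of 9 monocyte and macrophage markers. The lower stem and progenitor calls numbered 1 without WT replicate 1, 3 without WT replicate 2 and 7 without JMJD1B-/- replicate 2, the lower megakaryocyte calls 3 without either WT library, and the lower monocyte and macrophage calls 7 without JMJD1B-/- replicate 1 and 2 without any other library. The basophil, eosinophil and mast cell markers summed to 6145 and 1670 RPKM in WT and to 4593 and 1206 RPKM in JMJD1B-/-, so their sum differed more between replicates than between genotypes. T and NK cell markers summed to 102 RPKM in JMJD1B-/- replicate 1 and to between 22.9 and 42.8 RPKM in the other libraries. Of these 11 markers 2 were called higher and 1 lower, but 9 were called higher without JMJD1B-/- replicate 2, and 0 higher and 3 lower without JMJD1B-/- replicate 1. Without either WT library 1 was called higher. B cell markers (1 of 3 called lower, and between 0 and 2 with 1 library left out) summed to between 0.98 and 5.21 RPKM, and those of stroma and endothelium (2 of 7 called lower, and between 1 and 4 with 1 library left out) to between 14.2 and 73.0 RPKM. In these bulk samples, fewer cells of a type and less RNA per cell cannot be told apart. The part of cell composition in the results on the nucleolar genes was not tested.

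All 56 nucleolar genes were expressed and all passed the filter for testing, a mean of at least 0.5 RPKM. In WT they ranged from Utp23, at the 25.1 percentile of the listed genes, to Npm1, at the 99.1 percentile. Their levels added up to 2118 and 2572 RPKM in WT, and to 2280 and 2974 RPKM in JMJD1B-/-. The lower JMJD1B-/- sum thus lay between both WT sums, and the other lay above them. Over all entries, RPKM summed to 405123 and 388872 in WT and to 413643 and 458827 in JMJD1B-/-. JMJD1B-/- replicate 2 thus also held the highest total, and the nucleolar sums were not corrected for these totals.

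**Figure D1:**
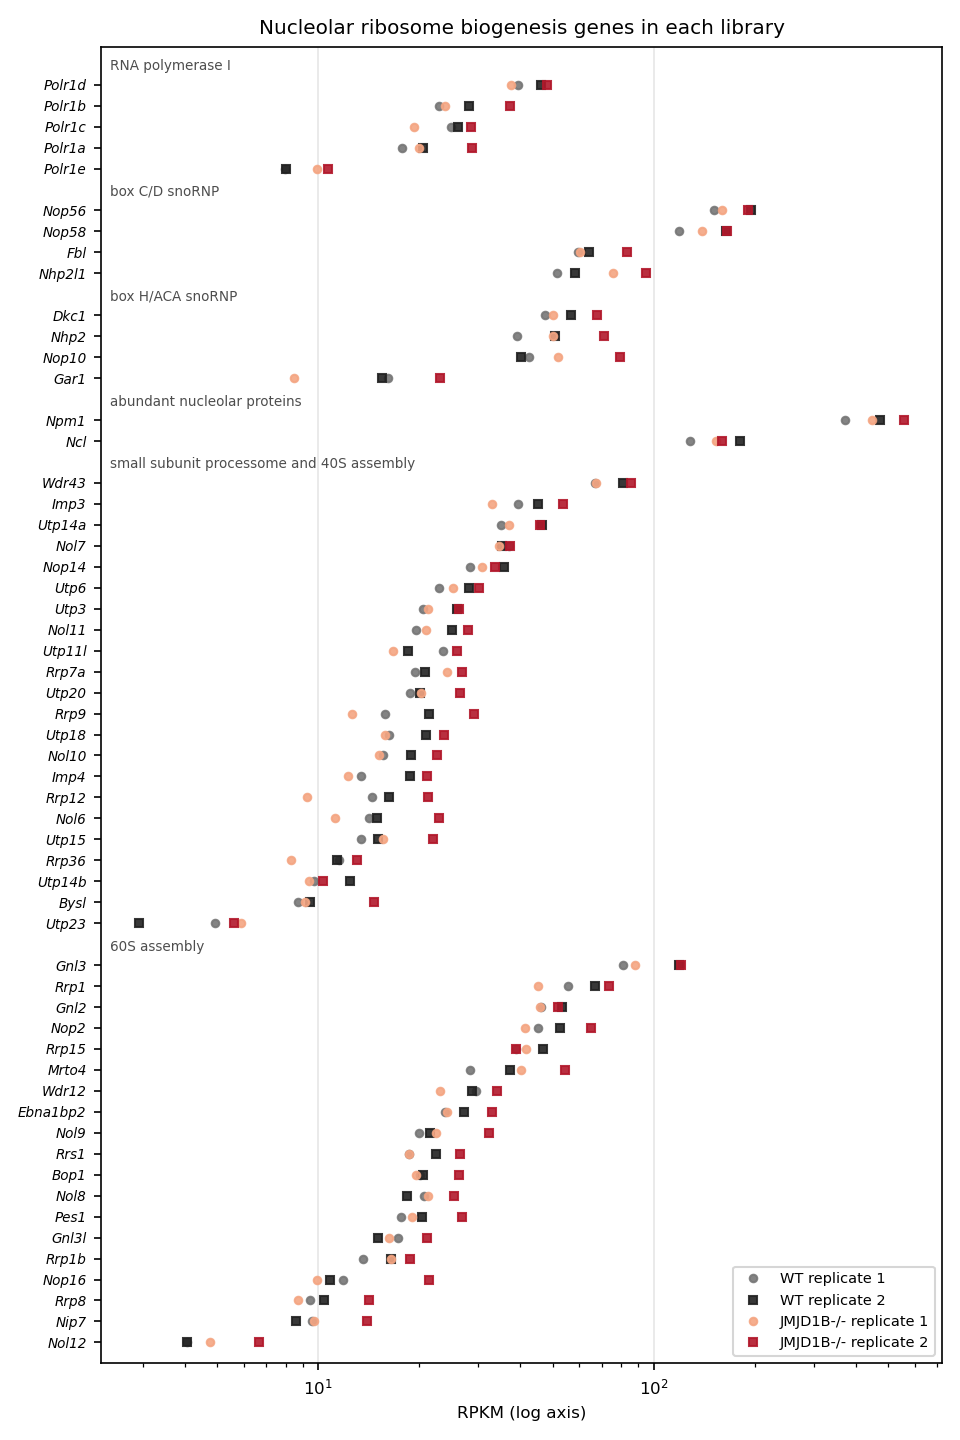
RPKM (log axis) of the 56 nucleolar ribosome biogenesis genes, grouped by role and ordered by WT mean. Each gene has 4 points, grey and black for the 2 WT libraries and orange and red for the 2 JMJD1B-/- libraries; the red point, JMJD1B-/- replicate 2, is the rightmost for 48 of 56 genes.

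Between genotypes, few of these genes differed beyond the replicate error. With limma on log2(RPKM + 0.1) over 11863 genes, 2 of the 56 were higher in JMJD1B-/- at an unadjusted p under 0.05 and 0 were lower. Among all genes tested, 3.81% were called higher and 6.33% lower, so the share of 3.57% for the nucleolar genes was close to the background of higher calls. None passed an adjusted p of 0.05, a threshold that 0.0421% of all genes passed, and the lowest adjusted p (Benjamini-Hochberg over all genes) among the nucleolar genes was 0.373. The lower JMJD1B-/- value exceeded the higher WT value for 13 genes, or 23.2%, against a background of 20.1%. The opposite order occurred for 0 genes, against a background of 22.7%.

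The log2 fold changes of the 56 genes ran from -0.17 to 0.63 and had a median of 0.13, against -0.02 for all genes tested. They were above 0 for 43 of the 56 genes (76.8%), compared with 47.0% of all genes. The standard error of a single gene was 0.23 at the median. For 47 of the 56 genes, the 95% interval of the log2 fold change lay between -1 and 1, and its median half-width was 0.54. Changes smaller than this were therefore mostly not detectable with 2 libraries per genotype.

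**Figure D2:**
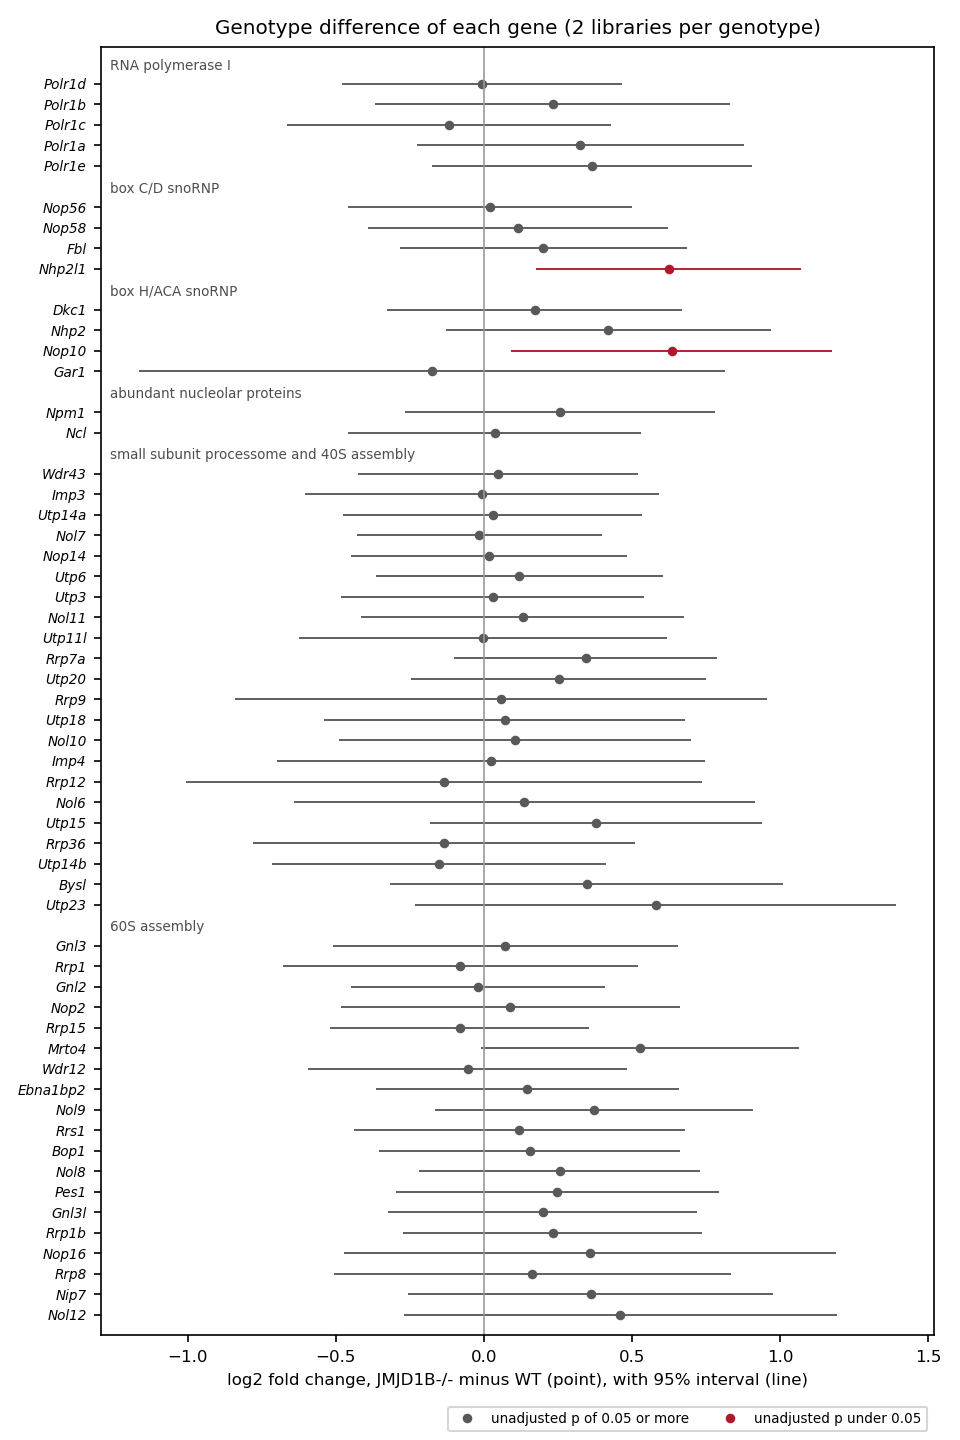
Log2 fold change of each of the 56 genes, JMJD1B-/- minus WT (points), with its 95% interval from limma (lines), 2 libraries per genotype. The intervals of Nhp2l1 and Nop10 (red) lie above 0, and those of the other 54 genes cross it.

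Box C/D particles have 4 core proteins. Nhp2l1, now named Snu13, binds the bend in the guide RNA on which the particle is built. Its level was 51.5 and 58.3 RPKM in WT and 75.6 and 94.5 RPKM in JMJD1B-/-. The groups did not overlap, and the JMJD1B-/- mean was 155% of the WT mean, with a log2 fold change of 0.62 (SE 0.19, 95% interval 0.18 to 1.07). Its unadjusted p in limma was 0.0128 and its adjusted p was 0.373. This call was also made without JMJD1B-/- replicate 1, with a log2 fold change of 0.79, and without JMJD1B-/- replicate 2, with 0.46, but not without WT replicate 1, with 0.54.

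The remaining box C/D proteins did not pass the test. Fbl, fibrillarin, is the enzyme that methylates the ribose, and it was at 59.3 and 64.2 RPKM in WT and 60.3 and 83.3 RPKM in JMJD1B-/-. Nop56, one of the paired scaffold proteins, was at 151 and 196 RPKM in WT and 160 and 191 RPKM in JMJD1B-/-. Nop58, its partner, was at 119 and 165 RPKM in WT and 139 and 165 RPKM in JMJD1B-/-. In each of these genes the libraries of both genotypes overlapped, and the log2 fold changes were 0.20, 0.02 and 0.12. By WT level per length, Nop56 (173 RPKM) and Nop58 (142 RPKM) overlapped over the replicates, and both lay above Fbl (61.8 RPKM), which lay above Nhp2l1 (54.9 RPKM).

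The other gene past the unadjusted threshold belonged to the box H/ACA particle. Nop10, its smallest core protein, was at 42.4 and 40.3 RPKM in WT and at 51.9 and 79.2 RPKM in JMJD1B-/-. The groups did not overlap, but most of the difference came from JMJD1B-/- replicate 2. The JMJD1B-/- mean was 159% of the WT mean, with a log2 fold change of 0.63 (SE 0.23, 95% interval 0.09 to 1.18). The limma unadjusted p was 0.0275 and the adjusted p 0.435. Without JMJD1B-/- replicate 2, the log2 fold change of Nop10 was 0.33 and no longer passed. It also failed to pass without WT replicate 1 (0.67) and without WT replicate 2 (0.60).

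Dkc1, dyskerin, is the pseudouridine synthase of the particle and was at 47.5 and 56.5 RPKM in WT and at 50.2 and 67.9 RPKM in JMJD1B-/-. Nhp2, which binds next to Nop10, was at 39.2 and 50.6 RPKM in WT and at 49.9 and 71.2 RPKM in JMJD1B-/-, with a log2 fold change of 0.42 (95% interval -0.13 to 0.97). Neither passed the test. Gar1, which helps to release the product, was at 16.1 and 15.5 RPKM in WT, while JMJD1B-/- replicate 1 was at 8.49 RPKM and replicate 2 at 23.03 RPKM. One JMJD1B-/- library was therefore below both WT libraries and the other above them, and the log2 fold change of -0.17 (95% interval -1.16 to 0.82) had the largest standard error of the 56 genes, 0.42. Gar1 was called lower without JMJD1B-/- replicate 2, at -0.89, and higher without JMJD1B-/- replicate 1, at 0.54. In WT, Dkc1 (52.0 RPKM), Nhp2 (44.9 RPKM) and Nop10 (41.3 RPKM) overlapped with their neighbours in the order of levels, whereas Gar1 (15.8 RPKM) lay apart below them.

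For the nucleolar genes, the sequence upstream of the transcription start was read from RefSeq windows of build GRCm38.p6. Windows were matched to 45 of the 56 genes, by symbol or, for Nhp2l1, by its synonym Snu13, and not to Bop1, Fbl, Gnl2, Gnl3l, Nol6, Npm1, Rrp12, Rrs1, Utp11l, Utp23 and Utp6. The 250 bases before the start are shown for Nhp2l1 and Nop10, the 2 genes past the unadjusted threshold, and for Nop2 and Nol11. The latter hold the E-box letters CACGTG and were picked among such genes without a fixed rule. Capitals mark matches to CACGTG, which reads the same on both strands, and to CCGGAA or its reverse complement TTCCGG, the core bound by ETS factors. The windows lie at chr15:82047599-82047848 on the minus strand for Nhp2l1, chr2:112261676-112261925 on the plus strand for Nop10, chr6:125131633-125131882 on the plus strand for Nop2 and chr11:107189382-107189631 on the minus strand for Nol11.
Nhp2l1: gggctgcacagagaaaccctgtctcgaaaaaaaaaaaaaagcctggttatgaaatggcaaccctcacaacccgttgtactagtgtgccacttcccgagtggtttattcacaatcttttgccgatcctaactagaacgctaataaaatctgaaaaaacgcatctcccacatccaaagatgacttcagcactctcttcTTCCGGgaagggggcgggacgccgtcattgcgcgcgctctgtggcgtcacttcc
Nop10: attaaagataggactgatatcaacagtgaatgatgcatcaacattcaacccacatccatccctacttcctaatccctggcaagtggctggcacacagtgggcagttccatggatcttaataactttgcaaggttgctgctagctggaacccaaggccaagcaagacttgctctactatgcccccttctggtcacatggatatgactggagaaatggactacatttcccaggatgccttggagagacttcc
Nop2: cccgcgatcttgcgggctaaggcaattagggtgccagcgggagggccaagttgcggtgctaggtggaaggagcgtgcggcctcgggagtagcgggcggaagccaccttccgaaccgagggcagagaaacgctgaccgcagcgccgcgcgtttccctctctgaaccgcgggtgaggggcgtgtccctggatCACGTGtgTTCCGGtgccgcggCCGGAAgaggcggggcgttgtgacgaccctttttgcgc
Nol11: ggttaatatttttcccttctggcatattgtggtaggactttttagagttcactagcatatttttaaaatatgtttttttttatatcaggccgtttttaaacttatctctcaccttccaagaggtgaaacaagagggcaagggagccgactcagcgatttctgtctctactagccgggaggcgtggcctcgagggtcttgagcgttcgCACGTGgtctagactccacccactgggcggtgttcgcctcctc

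Neither gene past the threshold held CACGTG, in these windows or in the first 50 bases of the transcript. The Nhp2l1 window held 1 ETS core and that of Nop10 held 0. In Nop2 the first base of CACGTG lay at position -60 from the start, with 2 ETS cores downstream of it, and in Nol11 it lay at position -43. Over windows from 250 bases before to 50 bases after the start, CACGTG occurred in 9 of the 45 nucleolar genes (20.0%), against 11.8% of 9423 tested genes with a window and 8.09% of all 27025 RefSeq genes. The 9 genes were Imp4, Nol11, Nop2, Pes1, Rrp7a, Utp14b, Utp18, Utp20 and Wdr43. The ETS core, a motif added after the first results were seen, occurred in 22 of the 45 genes (48.9%), against 32.3% of tested genes and 16.7% of all RefSeq genes. The median log2 fold change was 0.09 in the 9 genes with CACGTG, of which 0 were called, and 0.13 in the 36 genes without it, of which 2 were called. Of all genes tested, 3.81% were called higher and 6.33% lower, and the difference between the genes with and without CACGTG was not tested. These matches are letters in a window and not binding sites.

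Myc, whose product binds the E-box, was at 87.0 and 81.3 RPKM in WT and at 47.3 and 82.7 RPKM in JMJD1B-/-. One JMJD1B-/- library lay below WT and the other within its range, and the log2 fold change of -0.43 (95% interval -1.05 to 0.20) did not pass. Leaving out JMJD1B-/- replicate 1 gave -0.02, and leaving out replicate 2 gave -0.83, where Myc was called lower. The second JMJD1B-/- library was thus the higher of its pair, as for 65.6% of all genes, and the second WT library the lower of its pair, unlike most of the nucleolar genes.

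RNA polymerase I makes the ribosomal RNA precursor, and 5 of its subunit genes were among the 56. Polr1a, the largest subunit, was at 17.8 and 20.5 RPKM in WT and at 20.0 and 28.7 RPKM in JMJD1B-/-. Polr1b, with which it forms the active centre, was at 22.9 and 28.1 RPKM in WT and at 23.9 and 37.2 RPKM in JMJD1B-/-. Both overlapped between genotypes, with log2 fold changes of 0.33 and 0.23. Both were called higher without JMJD1B-/- replicate 1, at 0.58 and 0.55, and without JMJD1B-/- replicate 2 they were at 0.07 and -0.09. Polr1c and Polr1d, which RNA polymerase III shares, had log2 fold changes of -0.12 and -0.01. The libraries of Polr1e, a subunit that takes part in initiation, did not overlap, at 7.96 and 7.99 RPKM in WT and 9.92 and 10.7 RPKM in JMJD1B-/-, but its log2 fold change of 0.37 (95% interval -0.17 to 0.91) did not pass. Its values are given because they do not overlap, a choice made after they were seen. The WT levels ran from Polr1d (42.8 RPKM) through Polr1b and Polr1c (both 25.5 RPKM, with overlapping replicates) and Polr1a (19.1 RPKM) to Polr1e (7.97 RPKM).

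Npm1 and Ncl, nucleophosmin and nucleolin, are abundant proteins that bind RNA and act as chaperones in the nucleolus. Npm1 had the highest WT level of the 56 genes, at 371 and 472 RPKM, and was at 449 and 556 RPKM in JMJD1B-/-. Ncl was at 128 and 181 RPKM in WT and at 153 and 160 RPKM in JMJD1B-/-, so both JMJD1B-/- libraries fell between the WT libraries. Neither passed the test, with log2 fold changes of 0.26 and 0.04. Npm1 has many processed pseudogenes, and how reads shared with such copies were counted was not given in the sources used here.

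The largest group was that of the small subunit processome and 40S assembly, with 22 genes. None of these passed the test, 16 had log2 fold changes above 0, and their median was 0.05. The sign of this median turned with the library left out, from 0.35 when it was JMJD1B-/- replicate 1 to -0.12 when it was replicate 2 and -0.07 when it was WT replicate 1. Utp20, a large scaffold of the processome, was at 18.8 and 20.0 RPKM in WT and at 20.3 and 26.4 RPKM in JMJD1B-/-, without overlap but with a 95% interval from -0.24 to 0.75. Wdr43, a subunit that joins the precursor early, was at 66.7 and 81.0 RPKM in WT and at 67.4 and 85.8 RPKM in JMJD1B-/-. Bysl, bystin, acts late in 40S maturation and was at 8.70 and 9.45 RPKM in WT and at 9.14 and 14.6 RPKM in JMJD1B-/-. Wdr43 and Bysl overlapped between genotypes.

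Utp23, which takes part in early cleavage, had the lowest WT level of the 56 genes and the third largest log2 fold change, 0.58. It was at 4.93 and 2.93 RPKM in WT and at 5.89 and 5.59 RPKM in JMJD1B-/-, without overlap. The WT libraries were far enough apart that its 95% interval ran from -0.23 to 1.39. Rrp12, needed for export of the subunits, was at 14.5 and 16.3 RPKM in WT, while JMJD1B-/- replicate 1 was at 9.22 RPKM and replicate 2 at 21.2 RPKM. As for Gar1, the JMJD1B-/- libraries lay on opposite sides of WT, and Rrp12 was called lower, at -0.73, without JMJD1B-/- replicate 2. Utp14b was at 9.72 and 12.4 RPKM in WT and at 9.41 and 10.4 RPKM in JMJD1B-/-, and its log2 fold change of -0.15 was the second lowest of the 56. Utp14b is a retrotransposed copy of Utp14a, and reads from the 2 genes may not have been separated.

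The 60S assembly factors numbered 19, and 15 of them had log2 fold changes above 0, with a median of 0.16. None passed the test. Without JMJD1B-/- replicate 1 the median was 0.38, and without JMJD1B-/- replicate 2 it was -0.06. Pes1, Bop1 and Wdr12 form a complex required to process the large subunit RNA. Pes1 was at 17.6 and 20.4 RPKM in WT and at 19.0 and 26.7 RPKM in JMJD1B-/-. Bop1 was at 20.1 and 20.5 RPKM in WT and at 19.5 and 26.2 RPKM in JMJD1B-/-. Wdr12 was at 29.6 and 28.8 RPKM in WT and at 23.1 and 34.1 RPKM in JMJD1B-/-. All overlapped between genotypes, with log2 fold changes of 0.25, 0.15 and -0.05. In WT the replicates of Bop1 and Pes1 overlapped, and both genes lay below Wdr12.

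Nop2, a methyltransferase of the large subunit RNA, was at 45.0 and 52.7 RPKM in WT and at 41.4 and 64.8 RPKM in JMJD1B-/-. Gnl3, nucleostemin, is a GTPase known from stem and tumour cells, and it was at 80.8 and 119 RPKM in WT and at 88.2 and 121 RPKM in JMJD1B-/-. The replicates of Gnl3 differed in both genotypes, and the log2 fold change was 0.07. Mrto4, a factor that holds the place of a stalk protein on the early 60S particle, came closest to the threshold among the genes that missed it. It was at 28.3 and 37.2 RPKM in WT and at 40.3 and 54.4 RPKM in JMJD1B-/-, without overlap, with a log2 fold change of 0.53 (95% interval -0.01 to 1.06). It was chosen for mention after its values were seen. It passed the unadjusted threshold, together with Nhp2l1 and Nop10, when the libraries were rescaled by median ratios or by quantile normalization.

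The difference between the JMJD1B-/- replicates was larger than that between genotypes for most of these genes. JMJD1B-/- replicate 2 was above replicate 1 in 54 of 56 genes (96.4%), by 0.46 on the log2 scale at the median, compared with 65.6% of all genes and a median of 0.18. WT replicate 2 was above WT replicate 1 in 45 genes (80.4%), by 0.20, compared with 50.6% of all genes and a median of 0.01. In 47 of 56 genes (83.9%), the difference between the JMJD1B-/- replicates exceeded the log2 fold change between genotypes, against 60.02% of all genes. Rrp15 and Utp23 were the 2 genes that were lower in JMJD1B-/- replicate 2. The nucleolar genes thus varied together between libraries of the same genotype.

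**Figure D3:**
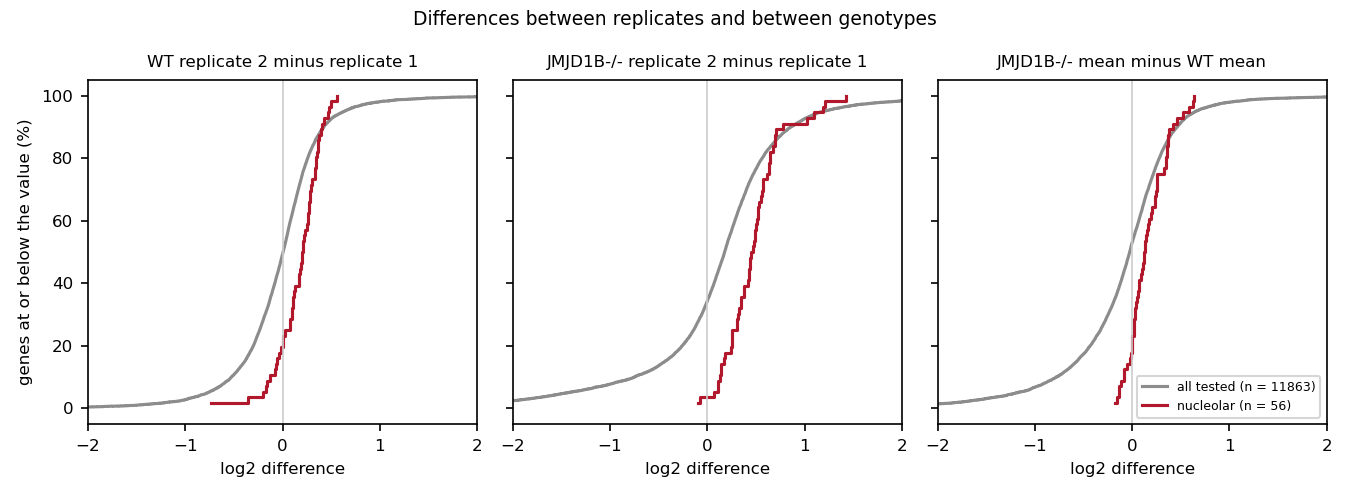
Cumulative share of genes (y axis, percent) by log2 difference (x axis) between the WT replicates (left), between the JMJD1B-/- replicates (middle) and between genotypes (right), for the 56 nucleolar genes (red) and all 11863 genes tested (grey). The red curve lies to the right of the grey curve over most of its range in all 3 panels, with medians of 0.20 between the WT replicates, 0.46 between the JMJD1B-/- replicates and 0.13 between genotypes.

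Against the WT mean, JMJD1B-/- replicate 1 was lower by a median log2 difference of -0.07 over the 56 genes and replicate 2 higher by 0.39. Replicate 2 was the highest of the 4 libraries for 48 genes (85.7%), against 39.3% of all genes. Replicate 1 was above both WT libraries for 13 of the 56 genes and below both for 21. Of all 11863 genes tested, it was above both for 3508 and below both for 5816. Without JMJD1B-/- replicate 1, 18 of the 56 genes were called higher (32.1%, against 11.6% of all genes) and the median log2 fold change was 0.39. In that fit Nhp2l1, Nop10, Mrto4 and Nop16 also passed the adjusted threshold (7.14%, against 8.41% of all genes). Without JMJD1B-/- replicate 2, Nhp2l1 alone was called higher, Gar1 and Rrp12 were called lower, and the median was -0.07. Of all genes in that fit, 6.15% were called higher, and 14.9% were called lower, against 3.57% of the nucleolar genes. These fits assume that the lone library of a genotype varies as much as the other genotype's libraries. Replicate 2 also held the higher erythroid marker sum of the JMJD1B-/- libraries, 2751 against 1571 RPKM, and was sequenced to a greater depth, and the part of either in the difference was not tested.

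Genes of the same pathway that the naming rule did not take were read from a separate list of 115 genes, of which 111 were in the table and tested. Of these, 4 were called higher (3.604%, against 3.81% of all genes) and 2 lower (against 6.33% of all genes), so neither count exceeded the background in this fit. The counts moved with the library left out, from 28 higher (25.2%, against 11.6% of all genes) and 0 lower without JMJD1B-/- replicate 1 to 2 higher and 10 lower (9.01%, against 14.9%) without JMJD1B-/- replicate 2. Without WT replicate 1 there were 0 calls, and without WT replicate 2 there were 2 higher and 0 lower. Log2 fold changes were above 0 for 75 of them (67.6%, against 47.0% of all genes), with a median of 0.12, which moved to 0.30 when JMJD1B-/- replicate 1 was left out, to -0.05 when replicate 2 was and to 0.02 when WT replicate 1 was. The called genes are described by their values only. Cd3eap, a subunit of RNA polymerase I, was at 6.63 and 7.33 RPKM in WT and at 11.3 and 11.6 RPKM in JMJD1B-/-, a log2 fold change of 0.71 with an adjusted p of 0.406 in limma. Wdr55 was at 17.6 and 23.2 RPKM in WT and at 28.1 and 35.1 RPKM in JMJD1B-/-. Nolc1, a chaperone of small nucleolar particles, was at 36.5 and 46.6 RPKM in WT and at 59.3 and 57.8 RPKM in JMJD1B-/-. Emg1, a methyltransferase of the 18S RNA, was at 64.9 and 58.1 RPKM in WT and at 81.7 and 83.1 RPKM in JMJD1B-/-. None of the 4 overlapped between genotypes. Without WT replicate 1 none of the 4 was called, and Cd3eap and Emg1 were also not called without WT replicate 2, nor Wdr55 and Emg1 without JMJD1B-/- replicate 2.

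The 2 lower genes were Taf1b, part of the factor that places RNA polymerase I on its promoter, and Mphosph6, a cofactor of the exosome. Taf1b was at 16.0 and 14.2 RPKM in WT and at 8.10 and 11.4 RPKM in JMJD1B-/-, a log2 fold change of -0.64. Mphosph6 was at 21.2 and 22.0 RPKM in WT and at 12.8 and 17.2 RPKM in JMJD1B-/-, a log2 fold change of -0.54. Both were farther from WT in JMJD1B-/- replicate 1, and neither was called without that library, with log2 fold changes of -0.40 and -0.33, or without either WT library. Other factors of ribosomal DNA transcription did not pass. Ubtf, which opens the ribosomal DNA for transcription, was at 49.3 and 58.8 RPKM in WT and at 61.5 and 70.2 RPKM in JMJD1B-/-, without overlap and with a log2 fold change of 0.29. Rrn3, the initiation factor that carries the polymerase to the promoter, had 0.15, Tcof1, treacle, -0.02, and Heatr1, a processome subunit, 0.17. Ddx21, a nucleolar helicase, was at 74.0 and 91.8 RPKM in WT and at 95.6 and 111 RPKM in JMJD1B-/-, with a log2 fold change of 0.32 that did not pass.

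The cytosolic ribosomal proteins are the cargo of this machinery. Of 79 tested, 10 were called higher (12.7%, against 3.81% of all genes) and 0 lower, 77 had log2 fold changes above 0, and the median was 0.28. The number of calls moved with the library left out, with 40 higher calls without JMJD1B-/- replicate 1 (50.6%, against 11.6% of all genes) and 3 without JMJD1B-/- replicate 2 (3.80%, against 6.15%). There were 2 without WT replicate 1 (2.53%, against 1.07%) and 0 without WT replicate 2 (against 2.09%), so the share was below that of all genes in 2 of the 4 fits. Their median moved to 0.49 when JMJD1B-/- replicate 1 was left out and to 0.11 when replicate 2 was. For 46 of them (58.2%) the libraries did not overlap and JMJD1B-/- was higher, against 23.2% of the nucleolar genes and 20.1% of all genes. Between the WT replicates the ribosomal proteins did not vary like the nucleolar genes, since WT replicate 2 was the higher library for 39.2% of them. Among 25 proliferation genes, 4 were called higher and 0 lower, against 3.81% and 6.33% of all genes. Their median was 0.27, and 18 were higher in JMJD1B-/- without overlap, against 20.1% of all genes. Without JMJD1B-/- replicate 1 and 2 that median was 0.31 and 0.15, and without WT replicate 1 and 2 it was 0.14 and 0.38. Their calls also moved with the library left out. The difference between the lists was not tested, and their order turned after quantile normalization. The ribosomal proteins then had a median of 0.07, with 49 of 79 above 0, 10 called higher and 2 lower, while the median was 0.11 for the nucleolar genes, with 36 of 56 above 0, and 0.02 for all genes.

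**Figure D4:**
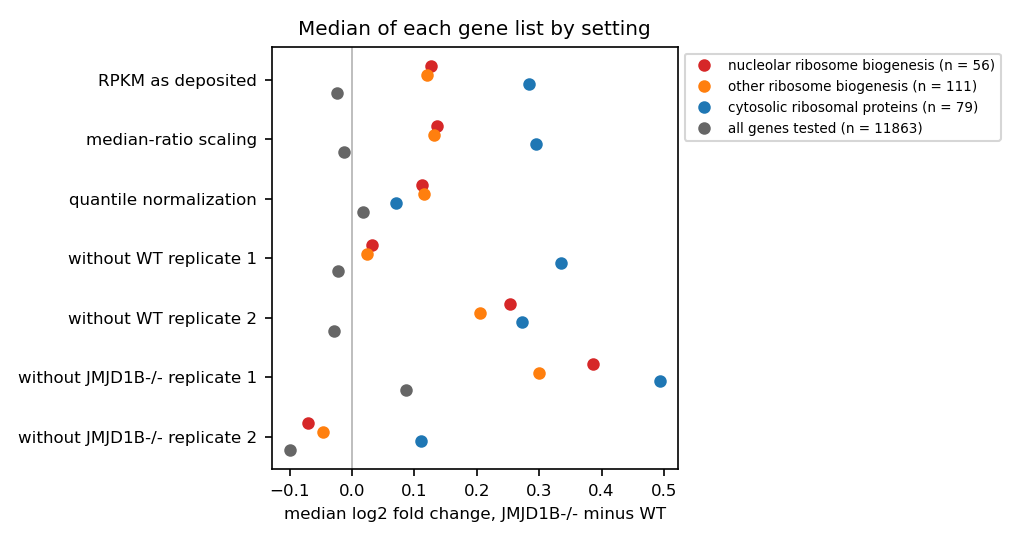
Median log2 fold change, JMJD1B-/- minus WT, of the nucleolar genes (red), other ribosome biogenesis genes (orange), cytosolic ribosomal proteins (blue) and all genes tested (grey), under 3 scalings and with each library left out. The nucleolar median stays between 0.11 and 0.14 under the 3 scalings, and runs from -0.07 without JMJD1B-/- replicate 2 to 0.39 without JMJD1B-/- replicate 1.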

How the data were processed

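Libraries of RNA from WT and JMJD1B-/- HSPCs were made with a kit that does not keep strand. The authors deposited 1 table for the 4 libraries, in which each value is RPKM with 1 added, and 1 was subtracted here. The submitters' processing notes name TopHat2, Novoalign and build mm9, with no role or version, and the read counter was not given in the sources used here. The 12024 rows carried 11982 gene names. Where rows had the same name their mean was taken, which touched no nucleolar gene. Depth was estimated from the steps between low RPKM values, with 12 genes giving the printed scale and at most 4 genes any other. Fold changes are on the log2(RPKM + 0.1) scale and were tested over the 11863 genes whose RPKM averaged 0.5 or more, by limma (version 3.58.1, R 4.3.3, two-sided, variance trend), with Benjamini-Hochberg adjustment over all genes. Replicate numbers were not used in the fit. Gene names and promoters came from RefSeq (GRCm38.p6); protein sequences were not used here. The fit was tested on simulated data.

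Genes named with values in every library were a fixed list of 20, those with an unadjusted p under 0.05, the 3 with the largest rise and the 3 with the largest fall, and the highest and lowest by WT level; other pathway genes were named if they were called or were 1 of 6 fixed names. Polr1e and Mrto4 were also named with values in every library, after those values were seen. The genes, the lists and the tests were chosen with earlier results of these data known. Other settings tried were a pseudocount of 1 or 0.01, a minimum mean of 1 RPKM or none, median-ratio and quantile scaling, limma without the trend, a gene-by-gene test, the replicate number as a block, the highest entry per name, and each library left out.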

Additional observations from a re-analysis of the deposited data

How the results depend on the processing

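With each library left out in turn, the nucleolar genes called higher numbered from 0 to 18, those called lower from 0 to 2 and those past the adjusted threshold from 0 to 4, and their median log2 fold change ran from -0.071 to 0.39. Over all genes, higher calls ran from 127 to 1367 and lower calls from 190 to 1777. Of single genes, the log2 fold change changed sign in at least 1 of these fits, and ran from -0.058 to 0.37 for Bop1, -0.047 to 0.39 for Dkc1, -0.032 to 0.43 for Fbl, -0.89 to 0.54 for Gar1, -0.20 to 0.35 for Gnl3, -0.12 to 0.46 for Heatr1, -0.21 to 0.28 for Ncl, -0.23 to 0.41 for Nop2, -0.16 to 0.21 for Nop56, -0.12 to 0.35 for Nop58, -0.087 to 0.55 for Polr1b, -0.73 to 0.46 for Rrp12, -0.32 to 0.27 for Tcof1, -0.33 to 0.023 for Utp14b, -0.33 to 0.22 for Wdr12 and -0.12 to 0.22 for Wdr43. The sign held, but the value ran from 0.012 to 0.68 for Bysl, 0.16 to 0.68 for Nhp2, 0.46 to 0.79 for Nhp2l1, 0.33 to 0.94 for Nop10, 0.082 to 0.43 for Npm1, 0.0033 to 0.49 for Pes1, 0.067 to 0.58 for Polr1a, 0.065 to 0.44 for Utp20, 0.21 to 0.95 for Utp23, 0.0037 to 0.30 for Rrn3, 0.16 to 0.41 for Ubtf, 0.17 to 0.48 for Ddx21 and -0.83 to -0.023 for Myc. Quantile normalization changed the sign for Gnl3 (-0.037), Ncl (-0.090), Nop56 (-0.10), Npm1 (-0.0061) and Wdr43 (-0.045). It and median-ratio scaling each called 3 nucleolar genes higher, Nhp2l1 and Nop10 among them, while higher calls over all genes tested went from 452 to 671 and 630. Limma without the trend called 1 gene (Nhp2l1), and the gene-by-gene test called 1 gene (Polr1e) that the reported fit did not call. Of the other pathway genes, Nolc1, Wdr55, Taf1b and Mphosph6 were called by neither of these, Emg1 was called neither without the trend nor after quantile normalization, and Cd3eap was called in all 3. With the replicate number as a block, 4 genes were called higher (Mrto4, Nhp2, Nhp2l1 and Nop10), the lowest adjusted p was 0.0787, Myc was called lower, and 571 of all genes were called higher and 914 lower; deviations of same-numbered libraries had a correlation of -0.05 over genes, so the replicate block rests on a shared number alone. For the other pseudocounts, filters and entry rule, the 2 calls were the same. The causes were not tested. The width of the intervals at 2 libraries per genotype limits what could be detected.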
